A study of Bos taurus with 4 samples.

Results

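Small RNAs from bovine oocytes at the germinal vesicle (GV) stage were examined for piRNA-like sequences of the secondary type, defined here as sequences that do not begin with T but carry A at base 10. A sequence was a member when every annotation listed for it named a piRNA cluster, its length was 23 to 27 nt, its first base was not T and its base 10 was A. The rule was met by 144454 of the 2468643 distinct sequences listed in the 4 libraries. Rows of the same length and annotation with a first base other than T and a base 10 other than A, 300090 in all, served as the comparison rows.

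The libraries were 2 TDRKH immunoprecipitates (IP), made from GV oocytes with a Tdrkh antibody from Proteintech, and 2 Inputs of GV oocytes with no antibody. The series asked which small RNAs accompany the complex of TDRKH, a Tudor-domain protein, with the oocyte Argonaute protein PIWIL3. No IP with a control antibody was analysed here, so the comparison is of IP with unprecipitated RNA, and the labels do not say whether replicates came from separate pools of oocytes. The p-values therefore measure the spread between these libraries, which may be technical.

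PIWI proteins bind piRNAs, which are cut from long transcripts of genomic clusters and which silence transposable elements in germ cells. In the ping-pong cycle a PIWI protein loaded with a primary piRNA, typically beginning with U, cuts a complementary transcript, and the cut creates the 5′ end of a secondary piRNA. Because PIWI proteins cut opposite a fixed place in the guide, the 5′ ends on both strands overlap by 10 bases, and the base paired with the leading U is an A at base 10 of the secondary piRNA. TDRKH is known mainly from mouse germ cells as a mitochondrial scaffold that binds PIWI proteins and takes part in the trimming of piRNA 3′ ends.

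The members with the most reads fell into a few groups that share a 5′ end. They are shown as DNA, 5′ to 3′, with base 10 in capitals. The 6 leading members were:
member 1: gccacaaagAgtcggacacgactgagt
member 2: acctgtggaAgccaagaaggaaaca
member 3: atccagaacAaggccctaagtgtat
member 4: atccagaacAaggccctaagtgta
member 5: acctgtggaAgccaagaaggaaac
member 6: acctgtggaAgccaagaaggaaacaa
Members 2, 5 and 6 share their 5′ end and differ at the 3′ end, and all come from a cluster at chr17:62734026-62887012. Members 3 and 4 likewise share a 5′ end, in a cluster at chr23:13851174-14138004. Member 1 carries names of 7 loci and differs from the annotated cluster sequence in all of them. The 3 leading comparison rows, shown to set the other bases at position 10 beside them, were:
comparison 1: accatctttTcccttcaaatgtagct
comparison 2: ctgacatcgGttgctctgcttcaat
comparison 3: atcctgaaaGatgatgctgtggaaa

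Members that form ping-pong pairs by sequence are shown with their partner. The partner is the most-read sequence of the same locus with the bases of a 5′ end on the other strand at an overlap of 10 bases. Overlaps were read from sequence and not from genome positions, so a copy elsewhere in the locus could give the same match. The capitals mark the 10 overlapping bases, which are reverse complements of each other. The first pair comes from the chromosome 17 locus and the other 2 from chr6:110174004-110336024, and of the 6 pairs with the most member reads these 3 were the ones listed in every library.
pair 1 member: GTCACAAAGAgtcagacacatggaa
pair 1 partner: TCTTTGTGACcccattgatggtagcc
pair 2 member: GTCACAAAGAgtggggcactacttaga
pair 2 partner: TCTTTGTGACcccatggactatgca
pair 3 member: ACTGAGATCAtgataaagggcgcct
pair 3 partner: TGATCTCAGTcctgagaactgtgtga
The members of pairs 1 and 2 begin alike although they lie on different chromosomes, and differ towards the 3′ end. The coordinates are those of the deposited cluster names, and no source used here names their genome build.

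The libraries held 11138905 and 11060320 listed reads in the IPs, against 1079364 and 1354003 in the Inputs, so that 3 reads correspond to 0.269 and 0.271 RPM (reads per 1000000 listed reads) in the IPs and to 2.78 and 2.22 RPM in the Inputs. The 4 microRNAs miR-21, miR-132, miR-424 and miR-503 were chosen as markers of somatic cells around the oocyte. They summed to 1.26 and 2.71 RPM in the IPs, against 236 and 283 RPM in the Inputs. Most of this was miR-21, with 0.988 and 2.26 RPM in the IPs, against 199 and 227 RPM in the Inputs. Loss of microRNAs in the IP, whatever their cell, cannot be told apart from somatic RNA in the Inputs. The values thus do not measure somatic cells. Of the 4, miR-132 had no read in either IP. Input libraries therefore held RNA that the IPs nearly lacked, and its part in the results below was not tested. In such libraries a lower share of one RNA and a higher share of the others cannot be told apart.

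Members made up a small part of the libraries. They took 3.42% and 3.53% of listed reads in the IPs, against 3.36% and 2.99% in the Inputs. Comparison rows took 5.09% and 5.48% in the IPs, against 5.08% and 4.71% in the Inputs. When reads were summed into classes by length, first base and base 10 and tested with edgeR's quasi-likelihood test, none of the 5 member classes passed an adjusted p of 0.05, and 1 had an unadjusted p under 0.05. Over all 92 classes tested, 25% were called higher in IP and 25% lower. The log2 changes of IP over Input ran from 0.07 ± 0.07 (SE, adjusted p = 0.476) at 25 nt to 0.19 ± 0.08 (adjusted p = 0.0837) at 27 nt, with edgeR and Benjamini-Hochberg adjustment. DESeq2 also called none of the 5. Without Input replicate 1 the 27-nt class alone was called.

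Within the class, make-up differed between IP and Input at base 1. The annotation notes bases at which a read departs from its cluster, and 12589 members (8.71%) carried such a note at base 1. In 8771 of them the annotated cluster sequence itself had T there. These held 2.45% and 2.44% of member reads in the IPs, against 20.2% and 15.4% in the Inputs. Comparison rows showed the same split, with 2.82% and 2.88% in the IPs against 18.5% and 14.3% in the Inputs. The change of T to A was the most frequent, at 1.44% and 1.39% of member reads in the IPs and 11.9% and 8.95% in the Inputs. Both IPs lay below both Inputs in each of these measures, and with 2 libraries a group the exact permutation test cannot go below p = 0.333.

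On the RPM scale these members summed to 840 and 860 RPM in the IPs, against 6788 and 4621 RPM in the Inputs. All other members summed to 33371 and 34455 RPM in the IPs, against 26842 and 25312 RPM in the Inputs. When sequences with any noted change at base 1 were left out, a setting chosen after seeing the data, all 5 member classes were higher in IP. Their log2 changes ran from 0.35 to 0.44 (edgeR, highest adjusted p = 0.00148), and the 5 comparison classes were called higher too. In that setting 63 of all 92 classes were called in either direction, with a median of 0.16, and the reads removed had already been seen to be lower in IP, so these calls are a description only. Noted departures at any base were also fewer in the IPs. They were found in every name for 27.9% and 27.7% of member reads in the IPs, against 60.2% and 50.1% in the Inputs, and for 23.6% and 23.8% of comparison reads in the IPs, against 55.9% and 46.6% in the Inputs. Base 10 itself was seldom the departing base, with 0.211% and 0.227% of member reads in the IPs and 0.672% and 0.498% in the Inputs.

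The label of a secondary type was checked through the share of A at base 10, which does not depend on library size. Among cluster reads of 23 to 27 nt that did not begin with T, base 10 was A in 40.2% and 39.2% of reads in the IPs, against 39.8% and 38.8% in the Inputs. The means were 39.7 ± 0.711% in IP and 39.3 ± 0.689% in Input (SD, n = 2 each), a difference of 0.369 percentage points (exact permutation test, two-sided, p = 0.667), so the groups overlapped. Base 10 had the highest share of A of all positions from 2 to 23 in every library. The second highest was position 4, with 37.4% and 36.5% in the IPs and 36.2% and 36.7% in the Inputs.

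A bias to A at base 10 was nonetheless not particular to sequences without a first T. Reads that did begin with T had A at base 10 in 42.5% and 41.9% of cases in the IPs and 41.4% and 41.0% in the Inputs, which is above the share of the other reads in each of the 4 libraries. For T-starting reads the next position stood further off, at 32.2% in both IPs and 33.7% and 33.4% in the Inputs. The rule therefore selects sequences with the base pattern of secondary piRNAs, but the enrichment of A at base 10 does not separate them from T-starting ones. Counted once each, sequences without a first T had A at base 10 less often in the IPs. Their share was 32.8% and 32.6% in the IPs, against 35.8% and 34.9% in the Inputs, while the share of reads was not lower. T-starting sequences counted once each were lower in IP too, with 35.3% in both IPs against 38.9% and 37.7% in the Inputs. The IPs were read more deeply, which can change counts of distinct sequences, and its part here was not tested.

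By first base the share of A at base 10 differed widely. Among G-starting reads it was 47.2% and 45.9% in the IPs, against 44.8% and 44.0% in the Inputs. Among A-starting reads it was 42.8% and 42.2% in the IPs, against 43.4% and 42.9% in the Inputs. C-starting reads had the lowest share, 27.3% and 26.6% in the IPs and 30.4% and 28.6% in the Inputs. The IPs lay above the Inputs for G and below them for A and C, each without overlap and each at the smallest exact permutation p that 2 against 2 libraries allow, 0.333.

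Members also differed from comparison rows in first base and in length, within the limits that the rule set on these features. The shares by first base come from the same read counts as the preceding paragraph and are not a separate result. G was the first base of 42.0% and 41.6% of member reads in the IPs, against 31.8% and 32.6% in the Inputs, and of 31.6% and 31.7% of comparison reads in the IPs, against 25.9% and 26.4% in the Inputs. C was the first base of 18.3% and 18.7% of member reads in the IPs, against 23.5% and 22.6% in the Inputs. Members were longer, with 27 nt in 25.5% and 23.7% of reads in the IPs and 23.9% and 23.1% in the Inputs. Among comparison rows 27 nt made up 15.8% and 15.1% of reads in the IPs and 14.3% and 14.8% in the Inputs.

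Member reads were more repeated, and more concentrated in a few sequences, than comparison reads. Names of more than 1 locus belonged to 30.9% and 30.1% of member reads in the IPs and 25.2% and 25.6% in the Inputs, against 18.9% and 18.5% of comparison reads in the IPs and 15.6% and 15.9% in the Inputs. The 10 members with the most reads held 13.3% and 11.99% of member reads in the IPs and 9.45% and 10.7% in the Inputs. The 10 leading comparison rows held 4.75% and 4.40% of comparison reads in the IPs and 3.31% and 3.98% in the Inputs. Most members were rare. Of the 144454, only 2785 (1.93%) were listed in all 4 libraries, and these held 55.7% and 53.7% of member reads in the IPs and 53.2% and 53.7% in the Inputs. Another 108045 members (74.8%) were listed in 1 library only.

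Part of what sets members apart, their names of several loci included, belonged to a single repeated family, the sequences that equal member 1 in at least 20 of the first 23 bases, a grouping chosen after seeing the data. The 23 bases compared include base 1, which is G in member 1, and base 10, which is A. The grouping by itself therefore favours members over comparison rows and a first G. Its removal likewise lowers the share of A at base 10. The family had 3563 members and 125 comparison rows, and its members carried names of 604 of the 956 loci. The family held 15.1% and 14.1% of member reads in the IPs, against 10.9% and 11.4% in the Inputs. Its reads began with G in 99.4% and 99.3% of cases in the IPs and in 98.9% and 99.2% in the Inputs, and 27 nt was the length of 67.2% and 63.0% of them in the IPs and 78.2% and 72.4% in the Inputs. Without the family 27 nt made up 18.05% and 17.2% of member reads in the IPs and 17.2% and 16.7% in the Inputs. Names of more than 1 locus then belonged to 19.9% and 19.8% of member reads in the IPs and 18.6% and 17.99% in the Inputs, close to the 18.9% and 18.5% of comparison reads in the IPs. The share of A at base 10 was then 36.4% and 35.7% in the IPs, against 37.1% and 36.0% in the Inputs. At base 1 of the remaining members G was still more frequent in IP, with 31.8% and 32.1% in the IPs against 23.6% and 24.1% in the Inputs.

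The leading members behaved unevenly. Member 1 had 1156 and 965 RPM in the IPs, against 1138 and 997 RPM in the Inputs, and the groups overlapped (log2 change -0.01 ± 0.21, SE, edgeR adjusted p = 0.972). With TMM factors and in DESeq2 it was called lower, with log2 changes of -0.70 and -0.68 (edgeR adjusted p = 0.00831 and DESeq2 adjusted p = 0.00277). Member 2 had 986 and 1186 RPM in the IPs, against 545 and 669 RPM in the Inputs, a log2 change of 0.84 ± 0.22 (SE, edgeR adjusted p = 0.00174). Its 3′ variants followed it. Member 5 had 326 and 359 RPM in the IPs, against 197 and 208 RPM in the Inputs, and member 6 had 306 and 296 RPM in the IPs, against 184 and 181 RPM in the Inputs. Both passed the test in edgeR (adjusted p = 0.00631 and 0.0093). None of the 3 passed it with TMM factors or in DESeq2, under which the median change of all tested sequences was 0.02 and 0.05, or in the edgeR fit with no RPM minimum (adjusted p = 0.11, 0.111 and 0.116). Members 5 and 6 were not called without either IP replicate, nor member 2 without TDRKH IP replicate 2 (edgeR adjusted p = 0.0932). Member 3 had 389 and 285 RPM in the IPs, against 277 and 331 RPM in the Inputs, and member 4 had 361 and 265 RPM in the IPs, against 244 and 276 RPM in the Inputs. Both overlapped between groups (edgeR adjusted p = 0.572 and 0.31), and their direction turned with TMM factors and in DESeq2. Among the comparison rows, comparison 1 had 359 and 331 RPM in the IPs, against 419 and 418 RPM in the Inputs (edgeR adjusted p = 0.263, and 0.00027 with TMM factors), and comparison 2 had 311 and 353 RPM in the IPs, against 239 and 290 RPM in the Inputs (edgeR adjusted p = 0.201). Comparison 3 was higher in IP, with 300 and 286 RPM in the IPs against 131.6 and 176.5 RPM in the Inputs (edgeR adjusted p = 0.00184, and 0.0509 without TDRKH IP replicate 1). It too lost its call with TMM factors (log2 change 0.25, edgeR adjusted p = 0.432), in DESeq2 (0.28, adjusted p = 0.439) and with no RPM minimum (edgeR adjusted p = 0.115).

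A test of single sequences could be made for 11786 of all listed sequences, those with at least 10 RPM in 2 libraries, and for 414 of the members. Over all tested sequences 41.9% were called higher in IP and 19.9% lower, and their median log2 change was 0.70. Of the 414 members 202 (48.8%) were called higher and 97 (23.4%) lower, with a median of 0.84. Of 537 comparison rows 187 were called higher and 105 lower, with a median of 0.64. Both IPs lay above both Inputs for 270 of the tested members and below them for 101, against 63.3% and 21.4% of all tested sequences. These counts are descriptions only. Of the 414 members 210 reached 10 RPM in both groups, while 110 passed through the IPs alone and 94 through the Inputs alone, and such sequences had to differ. The median of all sequences moved to 0.02 with TMM factors, under which 49 members were called higher and 102 lower, against 5.66% and 23.1% of all tested sequences.

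Of the 414 tested members 71 had a noted change at base 1. Their lower reads in IP had been seen in the whole class, and part of them passed the filter through the Inputs alone, so their values are given as a description with no count of calls. The T-starting form of the same sequence was listed for 70 of the 71 members. Summed over them, the changed forms had 231 and 247 RPM in the IPs, against 2019 and 1430 RPM in the Inputs, while their T-starting forms had 56766 and 50942 RPM in the IPs, against 58508 and 62376 RPM in the Inputs. The changed form was thus 0.405% and 0.482% of both forms in the IPs and 3.34% and 2.24% in the Inputs.

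The 4 tested members with the most negative log2 changes, named fall 1 to 4, were all of this kind. They reached 10 RPM in the Inputs alone, so the filter fixed their direction and their changes are a description. They are shown because each differs from an abundant T-starting sequence at base 1 alone, and the capitals mark base 1, which was noted as a change from T, and base 10.
fall 1: CctctctgcAtagctccttgttta
fall 2: AccactgtgAgaggtatgaggtcag
fall 3: CtcttgggaAttgtgatgagggt
fall 4: CccactgtgAgaggtatgaggtcag
Falls 2 and 4 are changed forms of the same T-starting sequence, from the chromosome 6 locus, and falls 1 and 3 come from the chromosome 23 locus. Fall 1 had 0.539 and 0.633 RPM in the IPs, against 10.2 and 12.6 RPM in the Inputs, a log2 change of -4.25 ± 0.40 (SE, edgeR). Its T-starting form had 396 and 362 RPM in the IPs, against 282 and 352 RPM in the Inputs. Fall 3 had 0.718 and 1.27 RPM in the IPs, against 20.4 and 14.03 RPM in the Inputs, a log2 change of -4.07 ± 0.41 (SE, edgeR). Its T-starting form was abundant in both groups, with 983 and 896 RPM in the IPs, against 1339 and 1239 RPM in the Inputs. Falls 2 and 4 had log2 changes of -4.11 and -3.87, and their common T-starting form had 472 and 389 RPM in the IPs, against 352 and 457 RPM in the Inputs.

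The 4 tested members with the highest log2 changes, named rise 1 to 4, reached 10 RPM in the IPs alone and had few reads in the Inputs, so here too the filter fixed the direction. Rises 1, 3 and 4 equal member 1 in 18, 20 and 17 of the first 23 bases.
rise 1: gttgcaaagAgttggacatgacttag
rise 2: gggtttagaAatggaagaacaac
rise 3: gtcacacagAgtcggacatgactgc
rise 4: gttgcacagAgtcagacatgactgaag
Rise 1, with names of 6 loci, had 14.4 and 18.5 RPM in the IPs, against 3.71 and 0 RPM in the Inputs. Rise 2, from chr11:1348823-1354939, had 10.3 and 11.8 RPM in the IPs, against 0 and 2.22 RPM in the Inputs. Rise 3 had 10.1 and 10.9 RPM in the IPs, against 0.926 and 1.48 RPM in the Inputs. Rise 4 had 11.0 and 11.3 RPM in the IPs, against 1.85 and 1.48 RPM in the Inputs. Their log2 changes ran from 2.74 to 3.30 (edgeR). The Inputs held 4 reads of rises 1 and 4 and 3 reads of rises 2 and 3, so the sizes are loose. None of the 4 was called in the fit with no RPM minimum (edgeR adjusted p = 0.0764 to 0.135), and rises 2, 3 and 4 were not called in DESeq2 (adjusted p = 0.112, 0.125 and 0.159). From the counts, rises 2 and 3, with 3 Input reads each, were 8.95 and 8.55 times as frequent in IP as in Input. Their exact 95% intervals, 3.03 to 43.7 and 2.89 to 41.8, cover counting error only and are given to show how loose the sizes are. The intervals leave out that these sequences were picked for their high change, so they cannot show a difference between IP and Input.

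Complementary partners were more often found for members than for comparison rows. A partner was first counted when its first 10 bases were the reverse complement of those of the member and both had a name of the same locus, so that for members the partner begins with T. Such partners were listed in the same library for 68.6% and 68.8% of member reads in the IPs, against 48.0% and 51.6% in the Inputs. For comparison rows the share was 23.5% and 23.4% in the IPs and 8.71% and 11.7% in the Inputs. A match of so few bases occurs often within a long locus. Among members that also had A at base 8, a match over 8 bases was found for 95.2% and 94.2% of reads in the IPs. In the Inputs it was found for 68.1% and 79.7% of their reads. With the IPs thinned to the 1079364 listed reads of the smaller Input, the share at 10 was 57.7% and 56.5% of member reads and 12.6% and 11.9% of comparison reads in the IPs.

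A stricter count, chosen after seeing the data, required 16 bases of the partner to match and was confined to sequences of 1 locus. It too rests on sequence and not on genome positions, so copies within a locus were not told apart. The bases upstream of the 5′ end were read from a longer listed sequence of the same strand and locus, which could be had for 52706 (48.4%) of 108871 members of 1 locus. At an overlap of 10 bases a partner was listed for 18.2% and 17.05% of these member reads in the IPs, against 14.4% and 14.1% in the Inputs. Over overlaps of 13 to 20 bases the highest share was 7.22% and 7.38% in the IPs and 4.85% and 3.43% in the Inputs, and 10 was the overlap with the highest share of reads in all 4 libraries. Comparison rows had partners at 10 for 2.67% and 1.65% of reads in the IPs and 0.943% and 0.563% in the Inputs.

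Because A at base 10 fixes the partner's first base as T, and T-starting sequences are the most common, members were also set beside sequences without a first T that have A at the last base of another overlap. Among those with A at base 9, partners at an overlap of 9 were listed for 11.6% and 15.5% of reads in the IPs and 7.97% and 4.88% in the Inputs. With A at base 8 the share at an overlap of 8 was 10.3% and 10.7% in the IPs and 9.95% and 4.64% in the Inputs, and at 11 bases it was 4.35% and 4.81% in the IPs and 1.37% and 1.77% in the Inputs. The overlap of 10 thus had the highest share in every library, and in TDRKH IP replicate 2 by a small margin over 9. Counted once each, member sequences had a partner at 10 in 5.57% and 5.47% of cases in the IPs and 6.72% and 5.89% in the Inputs.

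Partners at 10 bases were also frequent for T-starting sequences with A at base 10, at 29.0% and 31.6% of reads in the IPs and 25.1% and 10.7% in the Inputs. The shares in the IPs did not lie above both Inputs once the IPs were thinned to the same 1079364 listed reads. For members the share was then 12.7% and 8.37% in the IPs, below the 14.4% and 14.1% in the Inputs. For T-starting sequences with A at base 10 it was 11.6% and 9.42% in the IPs, against 25.1% and 10.7% in the Inputs. For comparison rows it was 0.372% and 0.225% in the IPs, below the 0.943% and 0.563% in the Inputs. Thinning evened out the listed reads of the IPs and the smaller Input but not the reads open to this count. Without thinning, upstream bases could be had for 53.4% and 54.1% of the reads of members of 1 locus in the IPs, against 34.6% and 39.9% in the Inputs, and the part of this in the shares was not tested.

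In at least 1 library 2943 members of 61 loci had a partner at 10 bases, and 96 had one in every library. Most of their reads came from the loci of the pairs shown above. The chromosome 6 locus gave 1140 and 1165 RPM of paired members in the IPs, against 730 and 865 RPM in the Inputs. The chromosome 17 locus gave 1043 and 809 RPM in the IPs, against 1142 and 777 RPM in the Inputs. The next, on chromosome 23, gave 162 and 178 RPM in the IPs, against 50.03 and 114 RPM in the Inputs.

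Within the pairs the 2 sequences were unequal. The member of pair 1 had 256 and 179 RPM in the IPs, against 156 and 109 RPM in the Inputs. Its partner had only 0.269 and 0.181 RPM in the IPs, against 3.71 and 0.739 RPM in the Inputs. This partner lay at or below the RPM of 3 reads in both IPs and in Input replicate 2, so its values rest on few reads. In pair 2 the partner was the more frequent sequence, with 930 and 851 RPM in the IPs, against 423 and 565 RPM in the Inputs. The member of pair 2 had 45.4 and 34.1 RPM in the IPs, against 37.1 and 31.8 RPM in the Inputs. In pair 3 the member was again the more frequent sequence, with 119 and 127 RPM in the IPs, against 81.5 and 129 RPM in the Inputs. Its partner had 2.60 and 4.07 RPM in the IPs, against 0.926 and 1.48 RPM in the Inputs. In both Inputs this partner lay below the RPM of 3 reads.

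Most members also lay close to a T-starting sequence of the same strand. A T-starting cluster sequence with the same bases over at least 18 positions and a 5′ end 1 to 5 bases away was listed for 93.8% and 94.2% of member reads in the IPs, against 71.3% and 78.3% in the Inputs. For comparison rows it was 93.5% and 93.8% in the IPs, against 74.0% and 78.9% in the Inputs, so members and comparison rows differed little. With the IPs thinned, the share for members was 88.3% and 88.2% in the IPs. A T-starting 5′ end 1 base upstream was listed for 58.2% and 56.7% of member reads in the IPs, against 22.3% and 33.3% in the Inputs. Comparison rows shared this, with 56.4% and 57.9% in the IPs, against 33.3% and 38.0% in the Inputs. With the IPs thinned, it was listed for 43.2% and 38.6% of member reads and 40.3% and 47.0% of comparison reads in the IPs. A T-starting 5′ end 1 base downstream was listed for 44.5% and 43.2% of member reads in the IPs, against 33.4% and 35.7% in the Inputs. For comparison reads it was 31.7% and 31.9% in the IPs, against 21.6% and 24.2% in the Inputs.

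Member reads came mostly from few loci, as did comparison reads, although most loci held some member. Overlapping cluster names were merged into 956 loci, and 865 of them held a member named for that locus alone. The 3 largest held 81.1% and 80.4% of such member reads in the IPs, against 81.9% and 82.3% in the Inputs, and 79.6% and 78.9% of comparison reads in the IPs, against 78.2% and 79.0% in the Inputs. Among the 10 largest loci of members and of comparison rows, 8 were the same. The chromosome 6 locus led with 8455 and 9114 RPM of members in the IPs, against 8959 and 8153 RPM in the Inputs. The chromosome 17 locus had 6861 and 7110 RPM in the IPs, against 7802 and 6609 RPM in the Inputs. The chromosome 23 locus had 3838 and 3622 RPM in the IPs, against 3831 and 3565 RPM in the Inputs. All 3 overlapped between groups. The next were chr14:4891038-5053723, chr3:90982081-91157012 and chr13:77214012-77412030.

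The share of members among reads without a first T varied strongly between loci. Over 35 loci with at least 1000 reads it ran from 0.188% to 93.6%, with a median of 35.5%, and it was above 50% in 4. The highest was at chr11:35085003-35093920, with 98.6% and 96.9% in the IPs, against 90.8% and 88.1% in the Inputs. It was followed by chr11:1348823-1354939, the locus of rise 2, with 87.0% and 87.5% in the IPs, against 82.9% and 89.7% in the Inputs. Next, by the mean of the 4 libraries, was chr23:14633006-14642017, with 60.1% and 55.5% in the IPs, against 52.8% and 92.9% in the Inputs. At this last locus the Inputs held only 64 reads of both classes, with 2 comparison reads in Input replicate 2. The lowest shares were at chr24:17793334-17800783, with 0.203% and 0.144% in the IPs, against 0.259% and 0.147% in the Inputs, and at chr9:23712000-23719387, with 0.174% and 0.102% in the IPs, against 0.31% and 0.459% in the Inputs. At chr19:44616212-44624700 it was 1.28% and 0.338% in the IPs, and no member read was among 85 reads of both classes in the Inputs, which allows a share of up to 3.53%. Among the large loci the chromosome 17 one stood highest, with 45.2% and 44.2% in the IPs, against 48.1% and 46.0% in the Inputs, and the chromosome 6 one had 31.9% and 32.0% in the IPs, against 31.9% and 31.4% in the Inputs. Without the 3 largest loci the share over all reads was 45.5% and 44.2% in the IPs, against 43.0% and 42.3% in the Inputs.

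Whether this share changed with the IP was tested within each locus, as the change of member reads relative to comparison reads (edgeR, library as a block, Benjamini-Hochberg adjustment over 136 loci). The share was called higher in IP at 8 loci (5.88%) and lower at 9 (6.62%), with 29 loci at an unadjusted p under 0.05. DESeq2 called 2 higher and 1 lower. The locus at chr11:35085003-35093920, given above, had the lowest adjusted p of the named loci called higher (log2 change of the ratio 2.41 ± 0.46, SE, edgeR adjusted p = 2.06e-05). At chrX:73404001-73411298 the share was 4.02% and 4.48% in the IPs, against 0.879% and 0.661% in the Inputs (log2 change 2.52 ± 0.55, SE, edgeR adjusted p = 0.000358). At chr16:74968001-74992002 it was 47.9% and 50.4% in the IPs, against 28.8% and 33.3% in the Inputs (edgeR adjusted p = 0.00163). At chr16:71699002-71726995 it was 31.9% and 33.2% in the IPs, against 7.41% and 13.2% in the Inputs (edgeR adjusted p = 0.0312). The Inputs held only 65 reads of both classes at this locus, with 2 and 5 member reads. At the chromosome X locus they held 4 and 3 member reads. On chromosome 14 the large locus had 32.5% and 32.2% in the IPs, against 29.0% and 29.8% in the Inputs (edgeR adjusted p = 0.0226).

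Lower shares in IP were found at loci with few Input reads and at the large chromosome 23 locus. There the share was 37.1% and 34.4% in the IPs, against 38.8% and 38.4% in the Inputs (log2 change -0.18 ± 0.06, SE, edgeR adjusted p = 0.0226). At chr23:34263004-34270973 it was 28.2% and 19.6% in the IPs, against 75.0% and 66.7% in the Inputs (log2 change -2.95 ± 0.55, SE, edgeR adjusted p = 1.85e-05). At chr10:80740004-80766022 it was 34.9% and 37.1% in the IPs, against 70.3% and 56.1% in the Inputs (edgeR adjusted p = 0.0226). The remaining named loci, chr22:44543001-44553311 and chr11:47480053-47488825, had at most 2.78 RPM of members in any library. Each of the 10 named loci lost its call in at least 1 of the 4 fits that left out a library, and 3 of them in all 4. The locus on chromosome X lost it without Input replicate 1 (edgeR adjusted p = 0.0579). The locus at chr11:35085003-35093920 lost it without TDRKH IP replicate 1 and without Input replicate 2 (edgeR adjusted p = 0.131 and 0.0544), and chr23:34263004-34270973 without either IP replicate (edgeR adjusted p = 0.131 and 0.331). Without sequences changed at base 1 both were no longer called, with log2 changes of 1.27 and -1.67 (edgeR adjusted p = 0.481 and 0.155).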

How the data were processed

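The libraries were made from total RNA of GV oocytes with a NEXTflex small RNA kit and single-end sequencing, per the labels' protocols. The authors deposited, for each library, a table of distinct sequences with a raw read count and the annotations given to the sequence by unitas, including bases that departed from the annotated sequence. How reads were trimmed and aligned, and to which build, was not stated in any source used here. Noted changes were checked against the read and all 10988394 matched it.

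Counts were summed or tested as deposited, and RPM are reads per 1000000 listed reads (18 to 36 nt). Overlapping names among 1159 clusters were merged into 956 loci. Tests compared IP with Input with edgeR 4.0.16 in R 4.3.3 (quasi-likelihood, total listed reads as library size), for classes of at least 1000 reads, sequences with at least 10 RPM in 2 libraries and loci with at least 200 reads, with Benjamini-Hochberg adjustment over all features tested and a threshold of 0.05. DESeq2 1.42.0 was an alternative. The fits were also run on simulated counts with known changes in a minority of features. These did not hold a shift of most sequences like the one seen here, so they do not show how the fits act under it. Shares were compared with an exact permutation test in scipy, whose smallest p for 2 against 2 libraries is 0.333. Partner and neighbour shares are descriptions. Replicates of a group differed beyond sampling noise (chi-square over degrees of freedom across members 2.32 for the IPs and 2.72 for the Inputs).

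The members and lists were chosen with earlier results of these data known. Named were the 6 members and 3 comparison rows with the highest mean RPM, the 4 members with the largest log2 change each way past the threshold with both IPs on one side of both Inputs, the 6 loci with the most member reads, the 3 with the highest and 3 with the lowest share of base 10 A, and up to 5 loci called each way. The settings without sequences changed at base 1, without noted mismatches, with 1 locus only and without the family of member 1, and the overlap of 16 matched bases, were added after seeing the data, as were the pairs shown.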

Additional observations from a re-analysis of the deposited data

How the results depend on the processing

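The difference of 0.369 percentage points in the share of A at base 10 changed sign when each distinct sequence was counted once (-2.69), without the 10 leading members and 10 leading comparison rows (-0.086), among sequences seen more than once (-0.41), among sequences of 1 locus (-0.454) and without the family of member 1 (-0.569). Leaving out each library in turn gave -0.133 to 0.872. All 5 member classes were called when distinct sequences were counted, without sequences changed at base 1 and without noted mismatches. So were all 5 comparison classes in each of these settings. Over all classes tested, 66 of 83, 63 of 92 and 84 of 89 were called. Leaving out a library gave a median log2 change of the 5 member classes of 0.06 to 0.20.

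Against 202 members called higher and 97 lower (41.9% and 19.9% of all tested sequences), TMM factors gave 49 and 102 (5.66% and 23.1% of all), DESeq2 13 and 102 (1.68% and 22.2%), single names 65 and 29 (40.6% and 24.9%), a minimum of 5 RPM 300 and 207 (29.8% and 21.8%), no RPM minimum 3 and 36 (0.00376% and 0.621%), and removal of sequences changed at base 1 left 202 and 27 (42.4% and 18.8%). Leaving out a library gave 75 to 190 higher (9.90% to 41.4% of all) and 95 to 97 lower (18.2% to 19.8%). Against 8 loci higher and 9 lower of 136, a minimum of 1000 reads gave 4 and 1 of 33. Distinct sequences gave 0 higher and 7 lower of 73, and unmerged names 3 and 4 of 185. DESeq2 gave 2 and 1 of 136, and removal of base 1 changes 4 and 2 of 124. Leaving out a library gave 1 to 5 higher and 0 to 11 lower.

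With a replicate block, 3 loci were higher and 1 lower. In that setting 182 members (44.0%) were higher and 97 (23.4%) lower, against 37.4% and 19.6% of all tested sequences. Nothing in the labels pairs the libraries, and the deviations of same-numbered libraries correlated at 0.085 over all tested sequences and 0.193 over members.

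The share of member reads with a partner of 10 bases was 18.9 points higher in IP. With thinned IPs it was 7.32 points higher and with partners seen more than once 16.9 points. With 16 matched bases it was 3.40 points higher, and -3.68 points, lower in IP, once the IPs were thinned. Leaving out a library gave 17.1 to 20.7 points. The share with a nearby T-starting 5′ end was 19.2 points higher in IP, 13.5 points with thinned IPs and 23.01 points within 3 bases, and 15.7 to 22.7 points with a library left out.

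Among named items, member 1 changed sign in 2 of the fits that left out a library (-0.145 to 0.115), member 3 with TMM factors (-0.53), in DESeq2 (-0.50) and without TDRKH IP replicate 1 (-0.093 to 0.357 over the 4 such fits), member 4 with TMM factors (-0.41) and in DESeq2 (-0.39), and comparison 2 with TMM factors (-0.35) and in DESeq2 (-0.32). Counting distinct sequences reversed the loci at chr14:4891038-5053723 (-0.043) and chr16:74968001-74992002 (-0.15), and leaving out Input replicate 1 reversed chr22:44543001-44553311 (-7.97 to 0.58 over the 4 such fits). The causes were not tested. The Inputs were much shallower than the IPs, which limits what can be said of rare members and of small loci, and 2 libraries a group cannot reach p = 0.05 in an exact test.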
